A study of Homo sapiens with 30 samples.

Results

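Collagen chain genes encode the subunits of the collagens, and were taken here as every row of the deposited read count table whose symbol has the form COL, a number, A and a number. The rule used names alone and found 44 genes among 60664 rows. They fall by the structure of their product into 11 fibrillar chains, 10 fibril-associated (FACIT) chains, 6 basement membrane chains, 6 beaded filament chains, 4 transmembrane chains, 3 short network chains, 2 multiplexins, 1 anchoring fibril chain and COL26A1. The libraries come from human embryonic kidney cells, the Flp-In T-REx line HEK293, in which every group carries GFP-tagged TIA1a under tetracycline control. In one derived line the protein is wild type (WT), and in the other it bears the mutation of Welander distal myopathy (WDM). Each line gave cytosol libraries from untreated cells, from tetracycline-treated cells and from tetracycline-treated cells given 0.5 mM sodium arsenite for 60 min, and granule libraries from the tetracycline-treated cells without and with arsenite. The granule fraction is what GFP-Trap beads held of a high-speed pellet of the lysate, so it contains RNA bound with the tagged protein whether or not arsenite was given, and no pull-down from cells without the tag was analysed here. All 10 groups hold 3 libraries. The labels do not say whether replicates are separate cultures, so p-values measure the spread between these libraries only.

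Collagens are secreted or membrane-anchored proteins whose chains wind into a triple helix in the endoplasmic reticulum, after hydroxylation of prolines and lysines and with the help of dedicated chaperones. Fibrillar collagens build the tensile fibres of connective tissue, FACIT collagens decorate those fibres, and type IV collagens form the network of basement membranes. Their mRNAs are long, are translated at the endoplasmic reticulum, and are known mainly from mesenchymal cells, while kidney epithelium is known above all for type IV chains.

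Library totals ran from 5906167 to 27419145 counts. A count of 0 in a library allows up to 3 counts, or 0.109 to 0.508 CPM (counts scaled to library size), and this limit covers counting error only, since amplified reads carry no molecular identifiers. Pairs of libraries within a group differed by a chi-square of 1.63 to 40.7 per degree of freedom, so no pair looked like a repeated library. Of 7 epithelial markers 5 reached a mean of 1 CPM in every group, with CLDN3 and CLDN4 below it, which bears on the submitters' label of epithelial cells. Their summed level was 309 to 611 CPM over the cytosol libraries and 85.5 to 167 CPM over the granule libraries. Of 7 markers of collagen-making mesenchymal cells 1 or 2 reached 1 CPM in a group and the sum stayed between 1.75 and 8.44 CPM, and none of 4 endothelial markers did. TIA1 itself had at most 1 count in any of the 30 libraries, so its row checks neither the induction nor the tag.

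Of the 44 collagens 33 were expressed, meaning a mean of at least 1 CPM in at least 1 of the 10 groups. These were 9 of 11 fibrillar, all 6 basement membrane, 7 of 10 FACIT, 4 of 6 beaded, 3 of 4 transmembrane, 1 of 3 short network and 1 of 2 multiplexin chains, with the anchoring fibril chain COL7A1 and with COL26A1. The 11 below that level were COL17A1 (highest group mean 0.954 CPM), COL6A3 (0.716 CPM), COL9A1, COL16A1, COL15A1, COL6A5, COL10A1, COL22A1, COL8A2, COL11A1 and COL1A2. COL1A2, which pairs with COL1A1 in type I collagen, had 8 counts in all and none in 23 of 30 libraries, whereas COL1A1 had 1578 counts. COL6A3, the third chain of the usual type VI trimer, was likewise below 1 CPM beside expressed COL6A1 and COL6A2. Low-count filters let 30 collagens into the tests on cytosol, 37 into those on the granule fraction and 34 into those between fractions. A member can pass the filter through the group in which it is high, so counts below are of the members tested and not of all 44.

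Per kilobase of annotated exon, the 8 highest collagens of the cytosol were COL2A1 (22.2 CPM per kb), COL4A1 (14.8), COL25A1 (13.5), COL14A1 (12.7), COL4A2 (11.7), COL6A1 (11), COL18A1 (8.74) and COL6A2 (6.9). Among 19942 protein-coding genes ranked on the same scale, COL2A1 stood at percentile 89.5, COL4A1 at 83.5, COL6A2 at 69.1 and COL1A2 at 11.6. The first place of COL2A1 came from the WDM line, with 25.9 CPM per kb in untreated and 42.3 in tetracycline cytosol. In untreated WT cytosol it had 10.3 CPM per kb, below COL4A1 (16.8), COL14A1 (15.4), COL4A2 (12.2), COL6A1 (11.2) and COL25A1 (10.5). Exon length sums all annotated exons, which makes the per-length level of genes with many isoforms a low estimate. Collagens are long genes, with a median exon length of 9.05 kb against 4.43 kb over protein-coding genes and a median span of 133 kb against 27.4 kb.

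**Figure D1:**
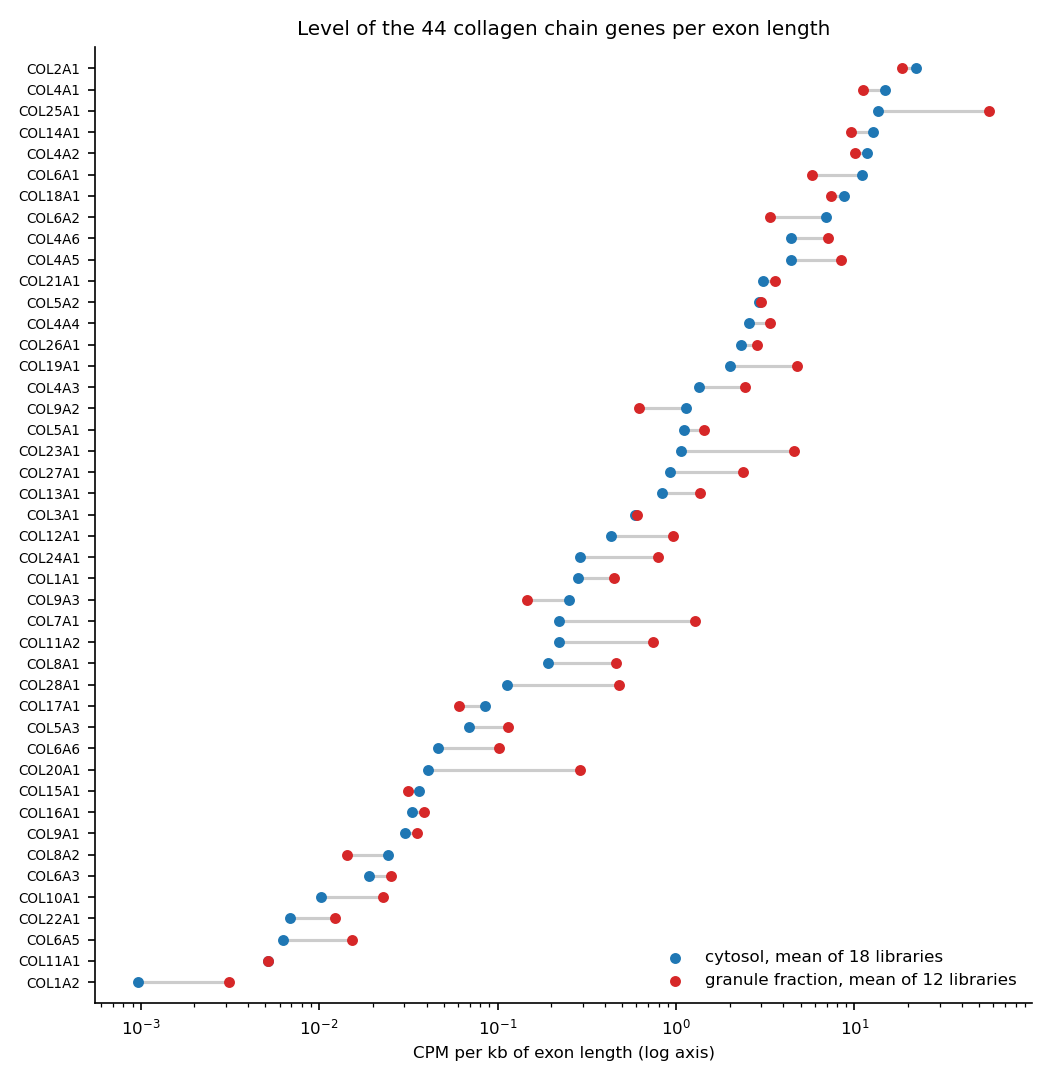
Mean level of each of the 44 collagen genes per kilobase of exon, on a log axis, over 18 cytosol libraries (blue) and 12 granule libraries (red), in order of the cytosol level. COL25A1 moves from 13.5 CPM per kb in cytosol to 57.1 in the granule fraction, and COL1A2 lies lowest in both.

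In untreated cytosol of the WT line the 3 libraries gave 69.5, 68.6 and 67.1 CPM for COL2A1, the chain of cartilage fibrils. COL4A1 had 262, 232 and 243 CPM and COL4A2 had 247, 224 and 233 CPM there. These libraries lay close together and the values of the type IV pair were nearly equal. COL25A1, the membrane-anchored precursor of a protein found in amyloid plaques, had 98.2, 88 and 89.4 CPM. COL14A1, a FACIT chain on type I fibrils, had 172, 153 and 145 CPM. COL6A1 had 56.3, 62.6 and 66.4 CPM and COL6A2 had 40.8, 38.6 and 44.2 CPM, both chains of beaded filaments. COL18A1, the multiplexin from which endostatin is cut, had 73.5, 84.5 and 81.9 CPM, but 18.5% of its exon bases lie opposite exons of SLC19A1, and the counting's handling of strand is not given in the sources used here. In the WDM line, the untreated libraries of COL4A1 (226, 210 and 225 CPM), COL14A1 (152, 140 and 142 CPM) and COL6A1 (70.1, 66.9 and 67.5 CPM) did not pass the test against WT, while COL2A1 did.

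Several collagens differed between the lines in every condition. COL2A1, COL3A1, COL5A2 and COL23A1 were higher in WDM than in WT in all 5 pairs of matched groups, and COL12A1 and COL24A1 were lower in all 5. The share of all genes called in all 5 pairs was not counted, so this recurrence is a description. Of the 30 collagens tested, 5 were higher and 3 lower in untreated cytosol at an adjusted p under 0.05, where 9.78% of all 16670 genes were called, 4.19% higher and 5.6% lower. Fitting only these groups gave 8 higher and 8 lower of 29, with 17.6% of all genes higher and 18.5% lower. Cytosol of tetracycline-treated cells gave 7 higher and 3 lower (background 12.6%, with 5.8% higher and 6.84% lower), and arsenite cytosol 6 higher and 4 lower (background 10.4%, with 4.98% higher and 5.37% lower). Of the 37 tested in the granule fraction, 5 were higher and 5 lower with tetracycline (background 5.55%, with 2.6% higher and 2.95% lower), and 6 higher and 3 lower with arsenite (background 7.95%, with 4.11% higher and 3.84% lower). The members called made up 24.3% to 33.3% of those tested in these 5 comparisons, above each background, while the members' median log2 difference stayed between -0.08 and 0.14. The 5 comparisons share no libraries with one another. Each line is represented by 1 derived line, so the mutation and any other difference between the lines cannot be told apart, and in bulk RNA fewer expressing cells and less RNA per cell cannot be told apart either.

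COL5A2 showed the largest difference in untreated cytosol. This chain of type V collagen, which starts and limits the thickness of type I fibrils, had 5.88, 5.84 and 4.64 CPM in WT and 35.7, 37.4 and 39.7 CPM in WDM. The log2 difference was 2.79 (SE 0.125, adjusted p = 3.67e-12). With tetracycline the cytosol libraries held 7.74, 6.73 and 9.18 CPM in WT and 39.5, 42.1 and 43.2 CPM in WDM, and the groups overlapped in none of the 5 pairs of COL5A2. Its partner chain COL5A1 was not called in any of them, and the ratio of COL5A1 to COL5A2 counts was 2.31 to 2.74 in untreated WT and 0.229 to 0.273 in untreated WDM. COL3A1, a fibrillar chain of skin and vessels, lies tail to tail with COL5A2 on chromosome 2, 19.2 kb away. It was also higher in WDM, at 5.74, 5.15 and 4.76 CPM against 2.49, 1.73 and 1.48 CPM untreated (log2 1.46, SE 0.267, adjusted p = 0.000934). Over the other genes tested within 5 Mb of COL5A2 the median line difference with tetracycline was -0.05 in cytosol (38 genes) and 0.10 in the granule fraction (41 genes).

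COL2A1 had 175, 169 and 173 CPM in untreated WDM cytosol, above every WT library, for a log2 difference of 1.33 (SE 0.0857, adjusted p = 7.66e-10). With tetracycline it stood at 277, 281 and 288 CPM in WDM against 89.6, 75.5 and 74.2 CPM in WT, a log2 difference of 1.83 (SE 0.0856, adjusted p = 3.75e-12). The granule libraries kept the order, with 127, 289 and 258 CPM in WDM and 68.1, 67.5 and 49.4 CPM in WT. COL23A1, a transmembrane collagen, was 1.79, 1.41 and 1.18 CPM in untreated WT and 8.23, 8.27 and 9.88 CPM in WDM. Its log2 difference was 2.58 (SE 0.379, adjusted p = 0.000137), and 2.63 with tetracycline. COL8A1, a short network chain known from vessel walls and the cornea, was higher in WDM in all 3 cytosol pairs (log2 1.93 untreated, SE 0.295, adjusted p = 0.000131) and in the arsenite granule pair (1.00, adjusted p = 0.0189). Its call in arsenite cytosol was lost without WDM or WT arsenite replicate 1 (adjusted p up to 0.126), and that in arsenite granules without WDM replicate 1 or WT replicate 1 or 3 (up to 0.141). COL19A1, a FACIT chain, was higher in WDM with tetracycline in both fractions (0.87 in each) and in arsenite cytosol (0.57). COL26A1 was higher in tetracycline cytosol (0.82) and arsenite granules (0.88).

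COL12A1, a very long FACIT chain of tendon and muscle, went the other way. Untreated cytosol held 12.7, 8.43 and 9.07 CPM in WT and 3.32, 3.48 and 2.91 CPM in WDM, with a log2 difference of -1.63 (SE 0.226, adjusted p = 4.08e-05). In arsenite granules it stood at 28.7, 25.9 and 23.3 CPM in WT and 7.21, 7.55 and 7.51 CPM in WDM (log2 -1.83, SE 0.173, adjusted p = 1.11e-08). COL24A1, a fibrillar chain, had 4.29, 3.13 and 3.65 CPM in untreated WT and 1.52, 1.6 and 1.06 CPM in untreated WDM (log2 -1.39, SE 0.246, adjusted p = 0.000699). WT was above WDM without overlap for both genes in these groups. COL4A5, a chain of the kidney's basement membrane network, was lower in WDM in 4 pairs, from -0.41 in arsenite cytosol to -0.67 in tetracycline granules. Its call was lost without WT arsenite replicate 3 in arsenite cytosol (adjusted p = 0.133), and in tetracycline cytosol with only the groups compared (0.0879). COL18A1 was lower in arsenite cytosol (-0.35, adjusted p = 0.0126), a call lost without WT arsenite replicate 1 (adjusted p = 0.0705).

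COL9A2, a FACIT chain of type II fibrils, was called lower in WDM in untreated cytosol and in no other pair. The untreated libraries had 6.88, 7.78 and 7.79 CPM in WT and 2.35, 2.47 and 2.03 CPM in WDM, which do not overlap (log2 -1.70, SE 0.218, adjusted p = 1.67e-05). With tetracycline WT had 5.63, 7.25 and 6.09 CPM and WDM had 4.38, 7 and 5.54 CPM, which do. The interaction of line and tetracycline was 1.56 (SE 0.295) with an adjusted p of 0.11, so it did not pass as fitted, although it passed with DESeq2 and, in edgeR, with no low-count filter and with replicate block and length-trend offsets together. No collagen passed in that interaction, where 7 of 30 had an unadjusted p under 0.05 and 0.018% of all genes were called, 0.012% higher and 0.006% lower.

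COL20A1 and COL7A1 were called lower in WDM in the tetracycline granule pair only, and COL20A1 was too low for the tests in cytosol. Their interactions of line and arsenite within the granule fraction, 0.97 for COL20A1 and 0.93 for COL7A1, did not pass (adjusted p = 0.336 and 0.254). COL20A1, a little-studied FACIT chain at chr20:63293186-63334851 (GRCh38, plus strand), had 2.38, 3.75 and 2.77 CPM in WT and 1.44, 0.773 and 1.18 CPM in WDM (log2 -1.43, SE 0.328, adjusted p = 0.00707). The other genes tested within 5 Mb of it had a median line difference of -0.53 in the same pair, with 71 of 80 lower in WDM, and of -0.43 in tetracycline cytosol, with 62 of 69 lower. The part of this shared shift in the COL20A1 difference was not tested. The COL20A1 call was lost without replicate 2 of WT or WDM (adjusted p up to 0.0674). COL7A1 (-0.69, adjusted p = 0.0278) lost its call without WT replicate 1 or 3 or without any 1 of the WDM replicates (adjusted p up to 0.132).

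The summed epithelial markers also differed between the lines, at 490 to 529 CPM in untreated WT cytosol and 346 to 360 CPM in WDM. There 3 of 5 tested markers were lower, against 5.6% of all genes. The mesenchymal markers summed to 6.27 to 7.2 CPM in untreated WT and 4.5 to 4.67 CPM in WDM, and with tetracycline to 6.31 to 6.82 CPM in WT and 7.22 to 8.44 CPM in WDM. Of the 2 tested mesenchymal markers 1 was lower in WDM in untreated cytosol, and 1 was higher with tetracycline and with arsenite. Their part in the collagen differences was not tested.

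**Figure D2:**
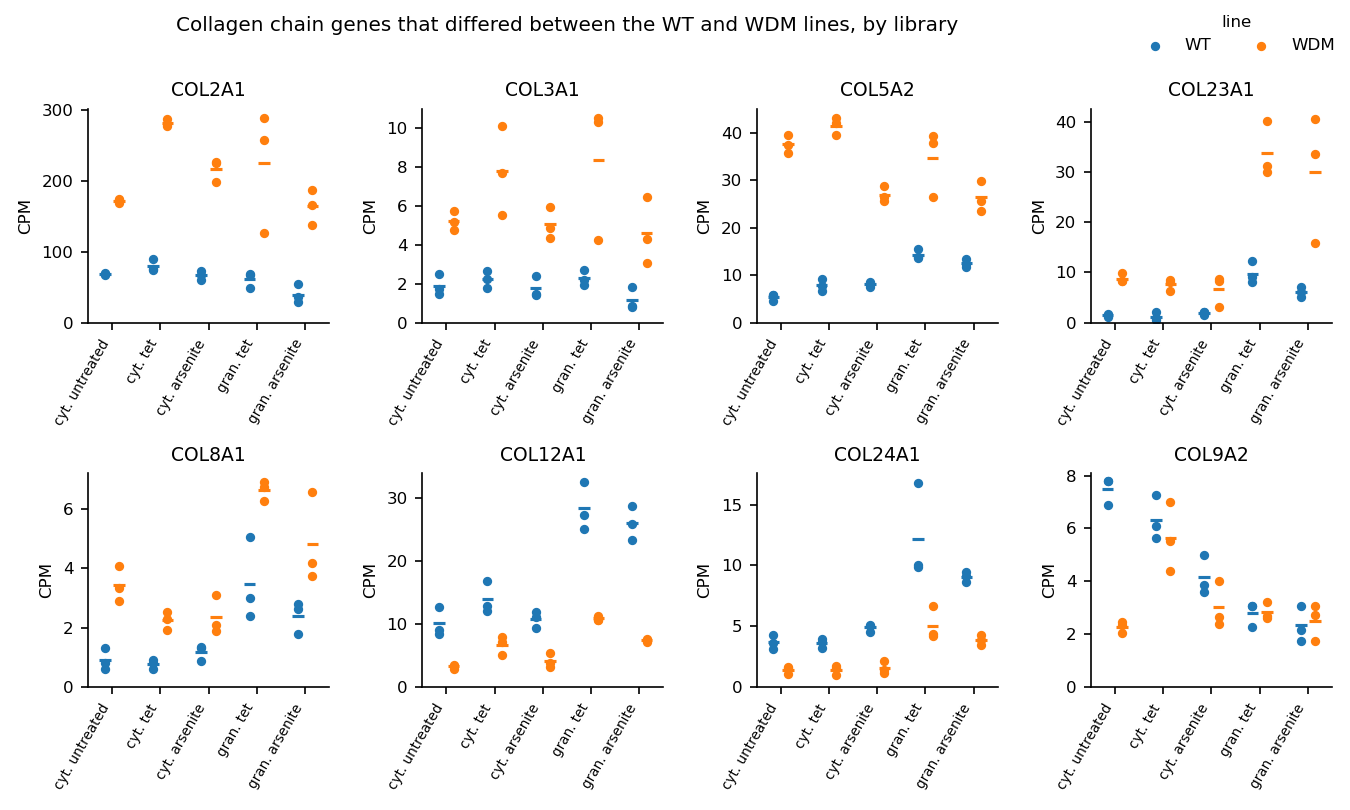
Level in CPM of 8 collagen genes in every library (points) and the group mean (bar), for the WT line (blue) and the WDM line (orange), in 3 cytosol and 2 granule conditions. WDM libraries of COL5A2 reach 35.7 to 39.7 CPM in untreated cytosol against 4.64 to 5.88 CPM in WT, and COL12A1 and COL24A1 show the opposite order.

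Tetracycline, which switches on the tagged protein, was followed by a fall of COL4A3 in both lines and by further changes, mostly rises, in WDM. In WT cytosol 1 of 30 rose and 2 fell (background 5.31%, with 2.93% rising and 2.39% falling), and in WDM cytosol 6 rose and 1 fell (background 6.3%, with 3.07% rising and 3.23% falling). The medians were -0.02 and 0.03, against 0 over all genes in both. COL4A3, a basement membrane chain of the glomerulus and lung, fell in both lines. It went from 23, 21.4 and 18.2 to 14, 11.4 and 10.9 CPM in WT and from 22, 23 and 21.6 to 15, 11.4 and 15.5 CPM in WDM, without overlap (log2 -0.80 and -0.67, adjusted p = 0.00475 and 0.00749). Its partner COL4A4 was not called, and the COL4A3 to COL4A4 count ratio was 0.524 to 0.697 in untreated WT and 0.416 to 0.449 with tetracycline. In WT, COL21A1 fell (-0.62, adjusted p = 0.0273) and COL5A2 rose (0.52, adjusted p = 0.0348). Both lost the call without any 1 of the untreated WT replicates, COL21A1 also without tetracycline replicate 2 (adjusted p up to 0.0861) and COL5A2 without tetracycline replicate 3 (up to 0.18). With length-trend offsets the WT count was 2 rising and 2 falling, and with library size alone 0 and 2.

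In WDM cytosol COL9A2 (1.30, SE 0.221, adjusted p = 0.0019), COL12A1 (1.04, adjusted p = 0.0104), COL19A1 (0.76, adjusted p = 0.00554), COL2A1 (0.70, adjusted p = 7.63e-05) and COL4A2 (0.37, adjusted p = 0.0128) were higher with tetracycline than untreated. COL19A1 went from 18.4, 17.9 and 19.8 CPM to 33.6, 24.7 and 36.8 CPM there, while WT stayed at 15 to 18.7 CPM in both groups, but its interaction with line (0.75) had an adjusted p of 0.826. The COL12A1 and COL4A2 calls were lost without tetracycline replicate 3 or untreated replicate 3, and that of COL4A2 also without untreated replicate 2 (adjusted p up to 0.0537 and 0.0707). The other 44 genes tested within 5 Mb of COL4A2 had a median line difference of -0.35 in untreated cytosol, with 41 lower in WDM. With tetracycline that median was 0.06, with 19 lower and 25 higher. The part of this shared shift in the COL4A2 rise was not tested. Over 426 genes of chromosome 20 the median change with tetracycline was -0.195 in WDM cytosol and 0.017 in WT cytosol. Whether the collagen rises in WDM came from tetracycline or from another difference between these libraries was not tested. These tetracycline comparisons use the same untreated and tetracycline libraries as the line differences above.

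Arsenite lowered the type IV pair COL4A1 and COL4A2 in the cytosol of both lines. COL4A1 had 264, 235 and 257 CPM in WT cytosol with tetracycline and 145, 145 and 164 CPM after arsenite. COL4A2 had 293, 233 and 241 CPM and then 194, 183 and 199 CPM. No arsenite library reached the lowest tetracycline library, and the log2 changes were -0.75 (SE 0.0896, adjusted p = 1.68e-05) and -0.43 (SE 0.0846, adjusted p = 0.00122). In WDM, COL4A1 went from 258, 258 and 308 to 143, 168 and 169 CPM (-0.78, adjusted p = 1.14e-05) and COL4A2 from 271, 262 and 295 to 177, 184 and 200 CPM (-0.56, adjusted p = 0.000129). COL4A1 fell further than COL4A2, in that the ratio of their counts was 0.902 to 1.06 before and 0.749 to 0.826 after arsenite in WT, and 0.954 to 1.05 before and 0.81 to 0.914 after in WDM.

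In all, 2 of 30 collagens rose and 5 fell in WT (background 29%, with 13.7% rising and 15.4% falling), and 0 rose and 12 fell in WDM (background 28.8%, with 14.1% rising and 14.8% falling). The share called in WDM, 40%, was above the background and that in WT, 23.3%, was below it. However, the WT count ran from 3 to 10 of 30 when 1 library was left out. It was 3 without arsenite replicate 2, 4 without tetracycline replicate 2 or 3, and 10 without tetracycline replicate 1. That replicate differed from replicates 2 and 3 by a chi-square of 23.9 and 24.2 per degree of freedom, against 2.81 between those. The median change was -0.06 in WT and -0.23 in WDM, against -0.02 and 0 over all genes. In WT, scaling to library size alone moved the median of all genes to 0.11 and gave 4 collagens rising and 3 falling, so the direction of small changes there is relative to that shift. COL4A1, COL4A2, COL14A1, COL2A1 and COL9A2 fell in both lines. COL14A1 went from 158, 129 and 154 to 101, 94 and 109 CPM in WT and from 140, 127 and 149 to 96.4, 79.3 and 99.5 CPM in WDM (-0.55 and -0.60). COL2A1 fell by 0.38 in WDM (adjusted p = 0.00239) and by 0.27 in WT (adjusted p = 0.0237). The WT call of COL2A1 was lost with library size alone, with no low-count filter, with the groups compared fitted alone, and without arsenite replicate 1 or 2 or tetracycline replicate 1 (adjusted p up to 0.249). COL9A2 fell by 0.91 in WDM (adjusted p = 0.0035) and by 0.62 in WT, where the call was lost in 6 of 14 other settings, among them without replicate 2 or 3 of either group (adjusted p up to 0.129).

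Further falls in WDM included COL12A1 (-0.69), COL3A1 (-0.68), COL5A2 (-0.63), COL18A1 (-0.54) and COL6A1 (-0.47). COL18A1 had 77.2, 87.3 and 80.3 CPM before and 59.2, 51.8 and 57.9 CPM after arsenite, and COL6A1 had 62.1, 74.5 and 58.1 CPM and then 51.9, 37.8 and 51.1 CPM. The groups did not overlap for either. COL12A1 lost the call without arsenite replicate 2 or 3 or tetracycline replicate 1 or 3 (adjusted p up to 0.0954), and COL3A1 without arsenite replicate 1 or tetracycline replicate 3 (up to 0.199). COL25A1 and COL28A1, a beaded filament relative, were called higher in WT (0.53 and 1.10) and not in WDM, where COL25A1 changed by 0.40 (adjusted p = 0.0659). Without replicate 2 of arsenite or replicate 2 or 3 of tetracycline each lost the WT call, COL25A1 also without arsenite replicate 1 and with only the groups compared, and COL28A1 also with DESeq2 and with no low-count filter (adjusted p up to 0.101 and 0.0799). None of the 30 passed in the interaction of line and arsenite, where 2 had an unadjusted p under 0.05 and 0% of all genes were called, so falls called in 1 line are not shown to differ between lines. DESeq2 called none either.

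Arsenite also lowered other secretory mRNAs in the same libraries. There 13.7% of all genes rose and 15.4% fell in WT, and 14.1% rose and 14.8% fell in WDM. Of 34 tested genes for collagen maturation and secretion 0 rose and 14 fell in WT and 1 rose and 17 fell in WDM, with medians of -0.28 and -0.32. The prolyl hydroxylase subunit P4HA2 (-0.62 and -0.75), the prolyl hydroxylation partner CRTAP (-0.65 and -0.59) and the isomerase PPIB (-0.65 and -0.51) were among them. Of 11 chaperones of the endoplasmic reticulum 0 rose, and 9 fell in WT and 10 in WDM. Of 21 other large matrix proteins, none rose and 10 and 12 fell, including the laminin chain LAMA1 (-0.89 and -0.98). Whether the fall of the collagens shares a cause with these was not tested.

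**Figure D3:**
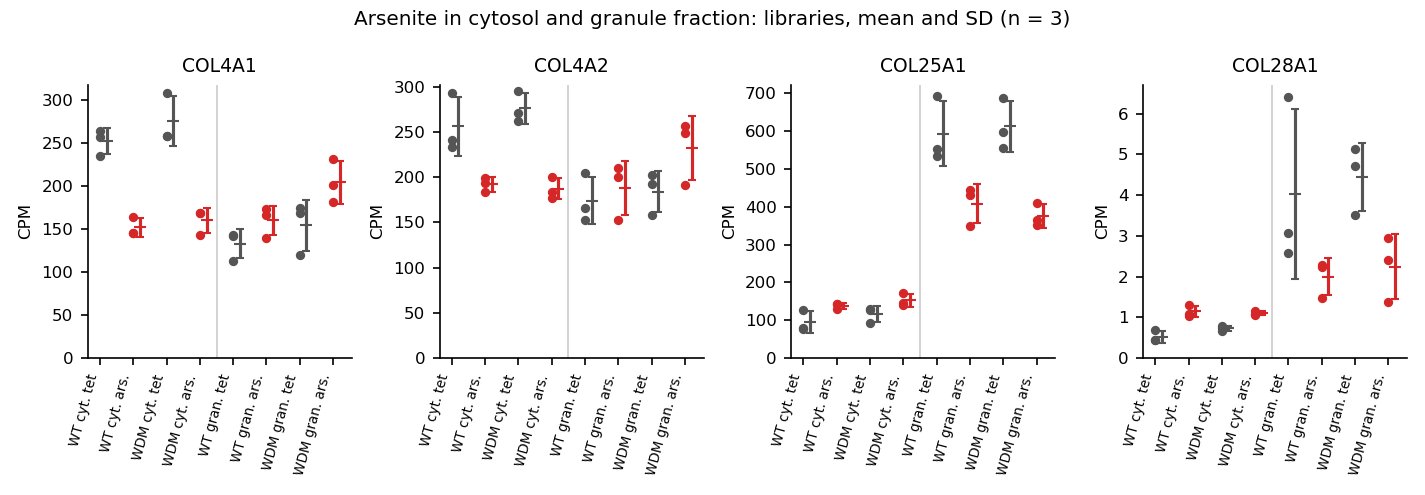
Level in CPM of COL4A1, COL4A2, COL25A1 and COL28A1 in every library of tetracycline-treated cells (points), without arsenite (grey) and with arsenite (red), with the group mean and SD (n = 3) beside them; cytosol lies left of the line and the granule fraction right of it. COL4A1 falls from 235 to 264 CPM to 145 to 164 CPM in WT cytosol and lies at 113 to 143 CPM before and 140 to 173 CPM after arsenite in WT granules, while COL25A1 falls there from 534 to 692 CPM to 349 to 444 CPM.

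Between fractions, more collagens were called on the granule side than on the cytosol side. With tetracycline alone, 19 of 34 were higher and 6 lower in the WT granule fraction than in WT cytosol (background 75.7%, with 39.5% higher and 36.2% lower), and 17 were higher and 7 lower in WDM (background 71.1%, with 35.8% higher and 35.3% lower). With arsenite, 17 were higher and 5 lower in WT (background 70.5%, with 35% higher and 35.5% lower) and 18 higher and 2 lower in WDM (background 72%, with 36.3% higher and 35.7% lower). The share called either way was thus near or below the background in each comparison, and the share called higher was above it. The collagens' median log2 difference was 0.74, 0.59, 0.51 and 0.54 in that order, against 0.07, 0.02, 0.05 and 0.06 over all genes. The 4 comparisons share no libraries with one another. Of the 34, COL5A3, COL6A6, COL17A1 and COL20A1 did not pass the low-count filter in cytosol. Without these 4 the counts were 17 higher and 6 lower, 16 and 7, 15 and 5, and 16 and 2 of 30. Granule against cytosol compares shares of sequenced RNA in each fraction, not amounts per cell.

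That lead was smaller once exon length was taken into account. When a trend on exon length was taken out through offsets, all 34 were counted, the 4 named above included. The counts were 15 higher and 8 lower in WT and 14 and 10 in WDM with tetracycline. With arsenite they were 9 and 7 in WT and 11 and 5 in WDM. Under the same offsets 35.6% of all genes were higher and 37.9% lower in WT and 32.7% and 35.3% in WDM with tetracycline, and 35.5% and 32.9% in WT and 36.4% and 33.4% in WDM with arsenite. Over all 34, the collagens' share called higher was above that of all genes with tetracycline and below it with arsenite. Under these offsets no count was made without those 4, so this is a description. The medians became 0.30, 0.18, 0.07 and 0.15, against -0.03, -0.03, 0.08 and 0.07 over all genes, so that in WT with arsenite the collagens' median was below that of all genes. Across all 34 collagens, Spearman's rho of the granule difference with exon length was 0.24, 0.22, 0.38 and 0.35 in the 4 comparisons. With the longest annotated transcript rho was 0.34, 0.32, 0.54 and 0.42, and with gene span 0.35, 0.36, 0.40 and 0.26. With cytosol CPM it was -0.39, -0.39, -0.30 and -0.43. The granule difference has the cytosol level as its denominator, so a negative rho with cytosol CPM is partly built in. Members that failed the cytosol filter but passed here through their granule libraries add to it. All these rho values are descriptions over genes that share the same libraries. Nuclear RNAs rose in the granule fraction as well, with medians of 3.60 and 3.13 over the 3 tested of 4 with tetracycline and of 1.68 and 1.94 with arsenite, and the part of nuclear or unspliced RNA in the collagen values was not tested.

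**Figure D4:**
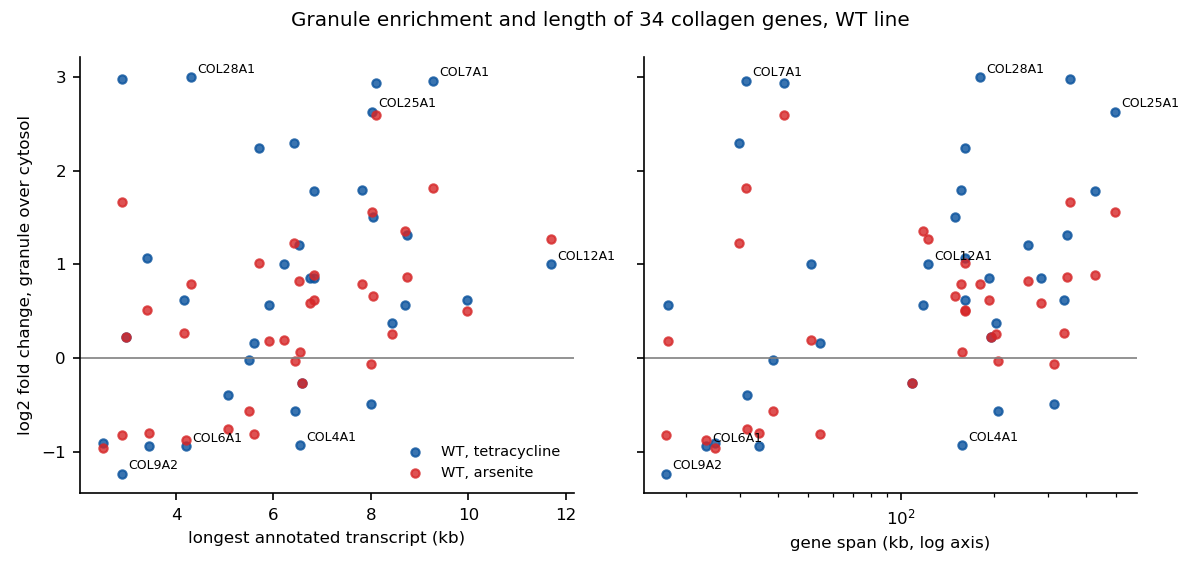
Granule over cytosol log2 fold change of the 34 tested collagen genes in the WT line, without (blue) and with arsenite (red), against the length of the longest annotated transcript (left) and the gene span on a log axis (right). COL25A1 and COL12A1, with long transcripts, lie above 0, and COL6A1 and COL9A2, with short ones, below. Other genes depart from this. Without arsenite COL23A1 (longest transcript 2.9 kb) and COL28A1 (4.3 kb) lie near 3, and COL14A1 (8.01 kb) lies below 0. By span, COL4A1 lies below 0 without arsenite at 158 kb and COL7A1 near 3 at 31.3 kb.

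COL25A1 had the highest level per kilobase of the collagens in the granule fraction. It lies at chr4:108808725-109302752 (GRCh38, minus strand), the longest span of the members at 494 kb. With tetracycline it had 128, 78 and 78.8 CPM in WT cytosol and 534, 554 and 692 CPM in the WT granule fraction. In WDM the values were 130, 91.5 and 128 CPM and 687, 555 and 599 CPM. Every granule library exceeded every cytosol library, with log2 differences of 2.63 (SE 0.186, adjusted p = 4.71e-13) in WT and 2.36 (SE 0.183, adjusted p = 6.76e-12) in WDM. COL25A1 made up 7.23% to 12.9% of all collagen CPM in the cytosol groups and 23.7% to 33.6% in the granule groups. The sum over all 44 collagens was 1050 to 1690 CPM in cytosol libraries and 1350 to 2010 CPM in granule libraries.

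Another 14 collagens were higher in the granule fraction in all 4 comparisons. In single comparisons 35% to 39.5% of all genes were called higher. The share of all genes called higher in all 4 was not counted, so this recurrence is a description. With length-trend offsets 5 of the 15 were still called higher in all 4, namely COL7A1, COL11A2, COL23A1, COL25A1 and COL20A1. Of these, COL20A1 failed the low-count filter in cytosol, so its place in both counts is a description. COL8A1, COL24A1, COL27A1 and COL28A1 were then called in 3, COL4A3, COL4A5 and COL19A1 in 2, COL4A6 and COL12A1 in 1, and COL4A4 in 0. Among the fibrillar chains these were COL11A2, COL24A1 and COL27A1. COL7A1, which forms the anchoring fibrils of skin, had 2.7, 2.16 and 2.65 CPM in WT cytosol and 23.2, 17.3 and 19.2 CPM in WT granules with tetracycline (log2 2.96, SE 0.204, adjusted p = 3.33e-13). COL23A1 (2.98, SE 0.429) and COL28A1 (3.00, SE 0.383) had differences of the same size in WT. COL20A1 (2.93) did too, but it failed the low-count filter in cytosol and entered this comparison through its granule libraries, so its difference is a description. The cytosol levels of COL28A1 and COL20A1 were low, at 0.432 to 0.676 and 0.265 to 0.526 CPM, close to what 3 counts represent, so their folds are the least certain. The other basement membrane chains COL4A3, COL4A4, COL4A5 and COL4A6, the FACIT chains COL12A1 and COL19A1, and the short network chain COL8A1 complete the set. COL4A5 had 63.1, 51.9 and 66.6 CPM in WT cytosol and 125, 127 and 170 CPM in WT granules, and COL4A6 had 49.6, 40.2 and 50.4 CPM and 73.5, 83.6 and 98.7 CPM (log2 1.21 and 0.86).

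COL6A1 and COL6A2 were lower in the granule fraction in all 4 comparisons. COL6A1 had 66.3, 69.3 and 57.1 CPM in WT cytosol with tetracycline and 34.4, 32.5 and 34.2 CPM in WT granules (log2 -0.94, SE 0.176, adjusted p = 2.14e-05). COL6A2, on the same strand of chromosome 21 and 93.1 kb away, had 38.2, 33.2 and 31.9 CPM and 17.4, 19.9 and 17 CPM (-0.94, SE 0.176, adjusted p = 2.19e-05). With arsenite the differences were -0.87 and -0.80 in WT and -0.62 and -0.64 in WDM. The COL6A2 groups overlapped in WDM with arsenite, at 28.3, 20.4 and 31.5 CPM in cytosol and 21.9, 12.3 and 18.7 CPM in granules. COL9A2 was lower in 3 comparisons, down to -1.23 in WT with tetracycline, and in WT with arsenite its call (-0.82, adjusted p = 0.00511) was lost with length-trend offsets (adjusted p up to 0.0582). COL4A1, COL4A2 and COL14A1 were lower without arsenite only by these calls. COL14A1 had 91.4, 110 and 115 CPM in WT granules (-0.49, adjusted p = 0.00389) and 78.9, 127 and 119 CPM in WDM granules (-0.39, adjusted p = 0.0204). COL18A1 passed in WDM with tetracycline alone (-0.46, adjusted p = 0.00541), at 58.2, 60.9 and 63 CPM in granules. Over the 34 members, including those that failed the low-count filter in cytosol, 21 had a difference above 0 in all 4 comparisons. A further 6 were below 0 in all, and 7 were of mixed sign. Such signs were not counted over all genes.

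By class, among those with more than 1 tested member, the 4 transmembrane chains had the highest median difference in each comparison, at 1.85, 1.38, 1.03 and 1.09. The 9 fibrillar chains had 0.86, 0.35, 0.26 and 0.41, and the 6 basement membrane chains 0.74, 0.56, 0.55 and 0.47. The 7 FACIT chains had 0.62, 0.66, 0.27 and 0.00, and the 4 beaded chains -0.18, -0.24, -0.01 and 0.18. These class medians include members that failed the low-count filter in cytosol. They are COL17A1 (transmembrane), COL5A3 (fibrillar), COL20A1 (FACIT) and COL6A6 (beaded), so the medians are descriptions. The maturation and secretion genes went the other way from the collagens, with 7 higher and 21 lower of 35 in WT with tetracycline (median -0.80), 6 and 22 in WDM (-0.74), 6 and 21 in WT with arsenite (-0.52) and 7 and 18 in WDM (-0.42). PPIB (-2.88), the collagen chaperone SERPINH1 (-2.13) and P4HB (-1.62) were lowest in WT with tetracycline, and the procollagen peptidases ADAMTS14 (2.74) and ADAMTS3 (1.47) and the crosslinking enzyme LOXL2 (1.12) were highest. Of 21 other large matrix proteins 6 were higher and 3 lower in WT with tetracycline, and 8 higher and 1 lower in WDM with arsenite. Over the 4 comparisons 35% to 39.5% of all genes were higher and 35.3% to 36.2% lower. All 11 chaperones were lower in both lines with tetracycline and 8 were with arsenite. Of the 6 epithelial markers tested 5 were lower with tetracycline and 4 with arsenite, and of 2 mesenchymal markers 1 was lower in each comparison and the other was higher in WT with arsenite. The 1 endothelial marker tested was higher in all but WT with arsenite.

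**Figure D5:**
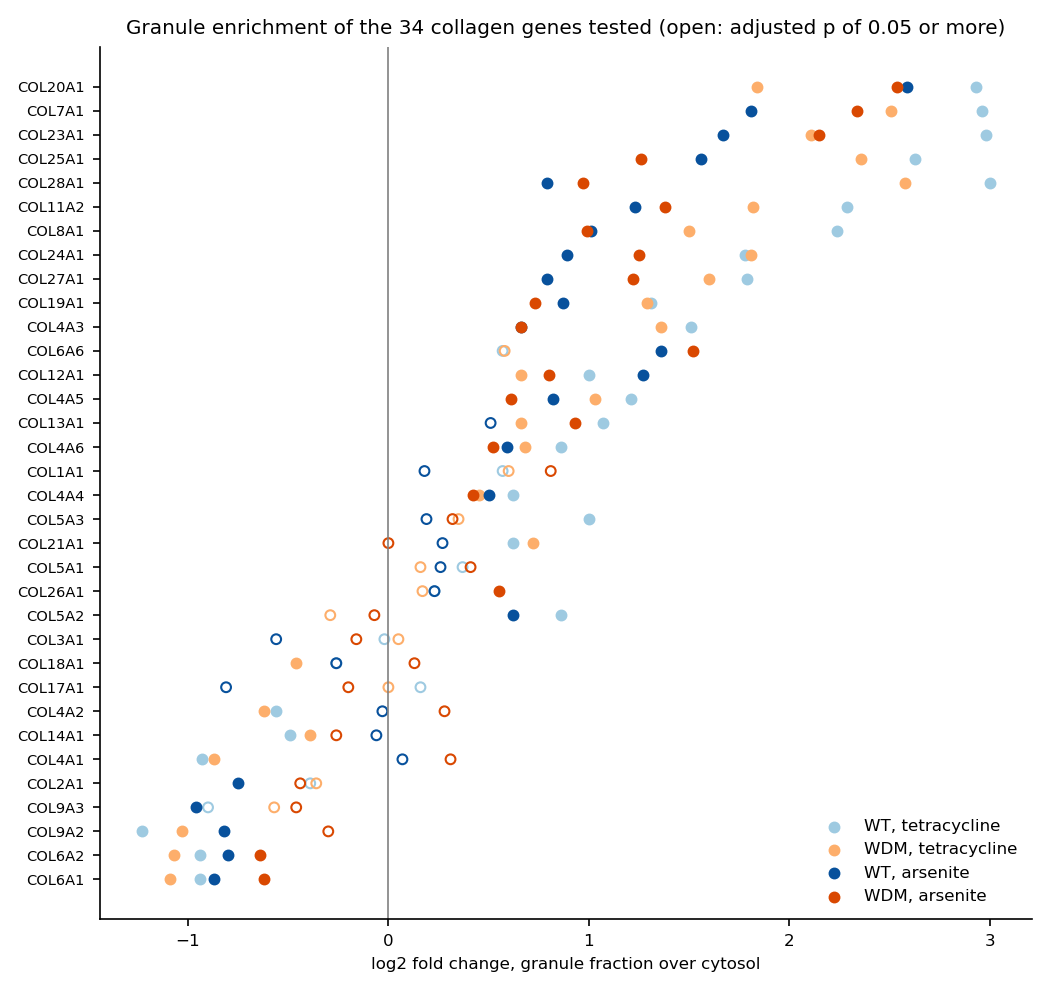
Log2 fold change of the granule fraction over cytosol for the 34 tested collagen genes in 4 comparisons (colours), in order of the mean; filled points passed at an adjusted p under 0.05 and open points did not. The 15 genes called higher in all 4 comparisons include COL7A1, COL23A1 and COL25A1, and COL6A1 and COL6A2 are lower in all 4. The 15 also include COL20A1, which failed the low-count filter in cytosol. The share of all genes called in all 4 was not counted.

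Within the granule fraction, the count of collagens that fell with arsenite was near the background. In WT 1 of 37 rose and 5 fell (background 30.6%, with 16.5% rising and 14.1% falling, median -0.35 against -0.03 over all genes), and in WDM 3 rose and 7 fell (background 36.3%, with 18.7% rising and 17.7% falling, median -0.14 against 0.01). The total called was below the background in both lines, and with library size alone WDM gave 3 rising and 3 falling. COL25A1 fell from 534, 554 and 692 to 431, 444 and 349 CPM in WT (-0.43, adjusted p = 0.0487) and from 687, 555 and 599 to 411, 365 and 351 CPM in WDM (-0.63, adjusted p = 0.00422), without overlap. The WT call was lost in 8 of 14 other settings, among them RLE factors, the replicate block, and leaving out arsenite replicate 1 or 3 or tetracycline replicate 2 or 3 (adjusted p up to 0.175). COL28A1 fell by 0.99 and 0.92, COL11A2 (-0.71) and COL7A1 (-0.70) fell in WT, and COL21A1 (-0.85) and COL19A1 (-0.61) fell in WDM. In WT the COL28A1 call was lost without arsenite replicate 1 or 3 or tetracycline replicate 3 (adjusted p up to 0.439), and in WDM without arsenite replicate 3 or tetracycline replicate 1 or 3 and with library size alone (up to 0.125). COL11A2 lost it without arsenite replicate 1 (0.0563) and COL19A1 without arsenite replicate 2 (0.0614). The WT call of COL4A5 (-0.38) was lost in 10 of 14 settings, among them without any 1 of the arsenite replicates or without tetracycline replicate 2 or 3 (adjusted p up to 0.221). In WDM, COL3A1 (-0.78) lost its call in 6 of 14, among them without replicate 2 of either group, without arsenite replicate 1 or without tetracycline replicate 3 (up to 0.197).

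COL20A1 rose in both lines, from 2.38, 3.75 and 2.77 to 4.31, 6.51 and 4.01 CPM in WT (0.82, adjusted p = 0.0222) and from 1.44, 0.773 and 1.18 to 4.39, 3.69 and 2.95 CPM in WDM (1.79, SE 0.307, adjusted p = 6.78e-05). In WT the call was lost without arsenite replicate 2 or tetracycline replicate 1 or 3 (adjusted p up to 0.137). COL4A1 rose in WDM granules from 120, 174 and 168 to 201, 181 and 231 CPM (0.49, adjusted p = 0.0182), and COL4A2 from 158, 202 and 192 to 249, 191 and 256 CPM (0.42, adjusted p = 0.0492), groups that overlap for COL4A2. The COL4A1 call was lost without arsenite replicate 3 or tetracycline replicate 1 (adjusted p up to 0.118). The COL4A2 call was lost in 7 of 14 settings, among them RLE factors, the replicate block, and leaving out arsenite replicate 1 or 3 or any 1 of the tetracycline replicates (up to 0.2). The interaction of line and arsenite called no collagen in the granule fraction, with 2 of 37 under an unadjusted p of 0.05 and 0% of all genes called, and DESeq2 called none.

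Set against the change in cytosol, the granule to cytosol difference of COL4A1 rose with arsenite in both lines. It went from -0.93 to 0.07 in WT and from -0.87 to 0.31 in WDM, changes of 1.00 (SE 0.206, adjusted p = 0.000621) and 1.18 (SE 0.206, adjusted p = 0.00024). COL4A2 changed by 0.89 in WDM (SE 0.209, adjusted p = 0.00264). COL25A1 changed by -1.07 and -1.10 and COL28A1 by -2.21 and -1.60. In the same comparisons 7 of 11 endoplasmic reticulum chaperones rose in WT (median 0.96) and 3 in WDM (0.53), and of 3 nuclear RNAs 2 fell in WT (-1.46) and 1 in WDM (-0.89). Their part in the collagen changes was not tested. Of 34 collagens 1 rose and 8 fell in WT (background 31.4%, with 12% rising and 19.4% falling, median -0.36 against -0.21 over all genes), and 3 rose and 2 fell in WDM (background 24.2%, with 7.66% rising and 16.5% falling, median 0.01 against -0.17). With length-trend offsets the WT count was 4 rising and 6 falling, with the median of all genes at -0.07, and with RLE factors 2 and 7.

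Line differences in the granule to cytosol difference were called for no collagen. With tetracycline 1 of 34 had an unadjusted p under 0.05 and 0.00551% of all genes were called, and the same holds with arsenite. COL5A2 came nearest, at 0.86 in WT and -0.29 in WDM with tetracycline, a difference of -1.15 (SE 0.215) with an adjusted p of 0.0861. Its granule libraries held 13.8, 13.7 and 15.5 CPM in WT and 26.6, 39.4 and 38 CPM in WDM. DESeq2, library size alone and the replicate block each called it.

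The type IV chains are encoded head to head in pairs, and the windows around their starts are shown for 2 pairs whose granule values lay on opposite sides of cytosol. COL4A1 and COL4A2 were lower in the granule fraction without arsenite and fell in cytosol with it, while COL4A5 and COL4A6 were higher in the granule fraction in all 4 comparisons. COL4A6 also fell in WDM cytosol with arsenite (-0.29, adjusted p = 0.0366). The remaining pair, COL4A3 and COL4A4, was higher in the granule fraction in all 4 comparisons too, and its windows, not printed, hold 67.7% and 74% G or C. RefSeq promoter windows (GRCh38.p14, 250 bases before to 50 after the start) were found for 32 of the 44 members. COL4A1 starts 127 bases from COL4A2, and their windows share 226 bases, chr13:110307108-110307407 on the minus strand and chr13:110307034-110307333 on the plus strand. COL4A6 starts 380 bases from COL4A5, with 121 shared bases, chrX:108439409-108439708 on the minus strand and chrX:108439588-108439887 on the plus strand. Capitals mark CCAAT and GGGCGG in either orientation (ATTGG and CCGCCC on the strand shown), and TATAAA was searched as well.
COL4A1: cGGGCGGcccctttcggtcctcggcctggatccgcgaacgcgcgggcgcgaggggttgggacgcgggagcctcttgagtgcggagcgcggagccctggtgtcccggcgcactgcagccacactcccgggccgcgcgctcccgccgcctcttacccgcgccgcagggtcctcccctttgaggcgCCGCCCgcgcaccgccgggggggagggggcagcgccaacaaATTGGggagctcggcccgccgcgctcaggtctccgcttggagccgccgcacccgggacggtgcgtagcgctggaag
COL4A2: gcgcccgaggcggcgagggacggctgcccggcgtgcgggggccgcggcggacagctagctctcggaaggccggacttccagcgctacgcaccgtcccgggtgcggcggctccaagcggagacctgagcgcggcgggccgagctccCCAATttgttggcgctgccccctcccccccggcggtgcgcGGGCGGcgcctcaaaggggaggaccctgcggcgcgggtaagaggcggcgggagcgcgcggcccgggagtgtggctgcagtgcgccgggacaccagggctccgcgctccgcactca
COL4A6: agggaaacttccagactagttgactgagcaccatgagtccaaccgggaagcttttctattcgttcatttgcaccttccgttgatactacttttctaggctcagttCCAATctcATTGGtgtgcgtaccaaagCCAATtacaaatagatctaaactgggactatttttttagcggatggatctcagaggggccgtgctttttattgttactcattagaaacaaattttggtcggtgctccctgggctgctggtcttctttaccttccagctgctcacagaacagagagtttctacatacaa
COL4A5: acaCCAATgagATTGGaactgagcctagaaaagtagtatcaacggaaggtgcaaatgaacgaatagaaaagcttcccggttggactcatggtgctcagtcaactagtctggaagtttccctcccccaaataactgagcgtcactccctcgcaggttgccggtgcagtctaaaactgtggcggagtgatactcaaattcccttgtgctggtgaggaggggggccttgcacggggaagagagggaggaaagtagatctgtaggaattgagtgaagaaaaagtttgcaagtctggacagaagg
The COL4A1 and COL4A2 windows hold 76.7% and 77.7% G or C with 1 CCAAT each and 2 and 1 GGGCGG, and those of COL4A6 and COL4A5 hold 43.7% and 49.3% with 3 and 2 CCAAT and no GGGCGG. None of the 4 holds TATAAA. The windows of a pair overlap on opposite strands, so a site in the shared bases is counted in both windows. This holds for the CCAAT and 1 GGGCGG of COL4A1 and COL4A2, and for 2 CCAAT of COL4A6 and COL4A5. Of all 35116 RefSeq windows, 34.6% hold CCAAT, 45% GGGCGG and 11.5% TATAAA. The 32 members found have 44 windows in all, since some members have more than 1. Of these 44 windows 14, 24 and 8 hold the motifs in that order. The count ratio of COL4A5 to COL4A6 was 1.28 to 1.37 in untreated WT cytosol, 1.52 to 1.73 in WT granules with tetracycline and 1.3 to 1.4 in WDM granules. The ratio of COL4A1 to COL4A2 was 1.04 to 1.06 in untreated WT cytosol and 0.704 to 0.858 in WT granules with tetracycline. A match to these letters is a description of the window only.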

How the data were processed

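The authors deposited 1 table of raw counts for 30 libraries, and it was used as given. The submitters' processing notes name GRCh38, Trimmomatic, STAR, Picard and featureCounts; versions, strand setting and annotation release are not given in the sources used here. Per the labels' protocols, libraries were stranded total RNA after rRNA removal. Of the identifiers, 60463 of 60664 were found in GENCODE v44, which gave lengths, and 56693 had the same start and end. The table holds no column outside the 30 samples.

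After the low-count filter of edgeR, filterByExpr with a minimum of 10 and a total of 15, genes were scaled with TMM and tested with its robust quasi-likelihood F-test (version 4.0.16) in R 4.3.3, with Benjamini-Hochberg adjustment over all genes of a comparison and a threshold of 0.05. One fit held the 18 cytosol libraries (16670 genes), another the 12 granule libraries (18366 genes) and another the 24 libraries of tetracycline-treated cells (18141 genes), giving 22 comparisons. The fits were tested on simulated data. As alternatives, the fits were run with DESeq2's RLE factors, with library sizes unscaled, without the filter and with the replicate number as a block. They were also run with offsets that remove a trend on exon length, on only the groups compared, in DESeq2 1.42.0, and with each library left out. Where that leaves 2 libraries in a group, the spread is pooled over all groups.

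The members and all gene lists were chosen with earlier results of these data known. Named genes were the 8 collagens highest per length in cytosol and, in each comparison, up to 5 called members in each direction by size, where the higher group averaged 1 CPM or more; up to 3 in each direction for other lists. Any further name was chosen after its values were seen. CPM are scaled by TMM over all 30 libraries.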

Additional observations from a re-analysis of the deposited data

Results flagged for a closer look

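The change of the granule to cytosol difference with arsenite is a difference between 2 effects, tested as an interaction in edgeR, and 14 such values passed. In WT the granule share of COL4A1 rose relative to cytosol (log2 change 1.00). Those of COL4A3 (-0.85), COL24A1 (-0.89), COL27A1 (-0.99), COL11A2 (-1.06), COL25A1 (-1.07), COL7A1 (-1.15), COL8A1 (-1.24) and COL28A1 (-2.21) fell. In WDM COL4A1 (1.18), COL4A2 (0.89) and COL18A1 (0.59) rose, and COL25A1 (-1.10) and COL28A1 (-1.60) fell. The calls of COL4A1 and COL25A1 held in both lines under every one of the 20 alternative settings run. The COL8A1 call in WT was lost in 12 of 20 settings, among them DESeq2, RLE factors, and leaving out replicate 2 or 3 of WT cytosol tetracycline or arsenite, or replicate 3 of either WT granule group (adjusted p up to 0.231). COL18A1 in WDM lost its call in 7 of 20, all of them a library left out: cytosol arsenite replicate 2, cytosol tetracycline replicate 2 or 3, granule arsenite replicate 1 or 3, or granule tetracycline replicate 1 or 2 (up to 0.0864). COL28A1 in WDM lost it without cytosol tetracycline replicate 3 or granule arsenite replicate 3 (up to 0.0556), and COL11A2 in WT without cytosol arsenite replicate 3 or with no low-count filter (up to 0.167). The median change over all genes was -0.21 in WT and -0.17 in WDM.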

How the results depend on the processing

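Of 179 counts of called or of expressed collagens under another setting, 170 stayed within 1.5 times the reported count. These include comparisons with 0 calls that stayed at 0. No direction of a named collagen reversed in any setting. With only the groups compared, the untreated line difference gave 16 calls (8 reported) and arsenite in WT cytosol 4 (7 reported). With library size alone, arsenite in WDM granules gave 6 (10 reported). The interaction of line and tetracycline gave 1 (0 reported) with DESeq2, with no low-count filter, and with replicate block and length-trend offsets. The line difference in enrichment with tetracycline gave 1 (0 reported) with DESeq2, library size alone, and the replicate block, which moved no other count by over 1.5 times. Within a fraction, replicate numbers showed no clear pairing. Same-numbered libraries correlated at a median of 0.0241 in cytosol and -0.0406 in granules, against -0.00906 and 0.0501 for other pairs. There 6 of 18 and 4 of 12 correlated best with their own number. Over the 24 libraries of both fractions the medians were 0.0556 and -0.0221, and 14 of 24 correlated best with their own number. A pairing between fractions is therefore possible, and the tests between fractions as reported did not use it. Leaving out 1 library gave 3 to 10 calls for arsenite in WT cytosol (3 without arsenite replicate 2, 4 without tetracycline replicate 2 or 3, 10 without tetracycline replicate 1). For arsenite it gave 2 to 6 in WT granules (2 without arsenite replicate 1 or tetracycline replicate 3) and 6 to 8 in WDM granules (6 without replicate 3 of either group). The enrichment change in WDM gave 3 to 7 (3 without cytosol tetracycline or granule arsenite replicate 3). Tetracycline gave 1 to 3 in WT (1 without any 1 untreated replicate) and 4 to 8 in WDM (4 without replicate 3 of either group). Of 125 named calls 93 held in every setting. The cause was not tested. Collagens near 3 counts, such as COL20A1 in cytosol, are limited by depth.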

Other observations

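Among genes that act with the collagens, P3H2, a prolyl 3-hydroxylase of type IV chains, was lower in WDM in all 5 pairs, at -1.25, -0.99 and -0.92 in untreated, tetracycline and arsenite cytosol and -1.23 and -1.29 in the granule fraction without and with arsenite. The collagen receptor kinase DDR2 was higher in WDM in untreated cytosol (1.52) and with tetracycline (1.08). Of 21 other large matrix proteins 6 were higher and 2 lower in WDM tetracycline cytosol (median 0.23), where 5.8% of all genes were higher and 6.84% lower. Fibrillin FBN1 (-0.72) was among those lower. In the granule fraction the collagen-binding integrin chain ITGB1 was lower than in cytosol with tetracycline (-1.66 in WT and -1.30 in WDM), while DDR2 was higher (1.92 and 1.41). Of 6 tested collagen receptors 4 fell with arsenite in the cytosol of each line, where 15.4% of all genes fell in WT and 14.8% in WDM, and ITGA10 rose in WDM (1.17). ITGB1 fell by 0.70 and 0.66, and ITGB1 rose in the granule fraction (1.31 in WT and 0.60 in WDM).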
